A study of Rattus norvegicus with 4 samples.

Results

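The genes described here are 46 genes of the cell division cycle, read in S16 cells, an immortalized rat Schwann cell line. They were taken by symbol, by no threshold on a measured value, from a list drawn up with earlier results of these data known. The deposited tables list 30708 genes, and all 46 symbols were found among them. All 46 also had a mean of at least 1 RPKM (reads per kilobase of gene model, scaled by the total reads of the library), a level that 11025 listed genes reached. By role they comprise 11 genes of G1 and the entry into S phase, 18 genes of DNA replication and 17 genes of mitosis or its preparation.

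Poly(A) RNA-Seq was carried out on unmodified S16 cells at passage 9 and at passage 39, with 2 libraries of each passage that the labels call technical replicates. No library carried a genetic change or a treatment. The earlier of these populations was, by the study's methods, the parent of genome-edited lines that were not analysed here, and cells were taken from a confluent flask. Each passage is thus 1 population of 1 line, and no p-value was computed. The 4 libraries held between 34.2 and 41.4 M reads (M, 1000000), as recovered from the RPKM values. These totals are larger than the reads per line that the study's methods mention, and the reason was not tested. At these depths the number of whole reads behind each of the 46 genes could be recovered, from 88 for Ccnb2 to 29797 for Top2a. All intervals below are exact 95% intervals (Clopper-Pearson) of those reads. They allow for counting error and nothing else, because reads counted without molecular tags may be copies of 1 molecule.

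The label calls the cells myelinating Schwann cells. Of 10 Schwann cell markers 9 had at least 1 RPKM, among them Sox10, a transcription factor of the Schwann cell lineage, with 174, 183, 171 and 176 RPKM in passage 9 libraries 1 and 2 and passage 39 libraries 1 and 2. Where 4 values of a gene are listed below without naming the libraries, they stand in this order. Gap43 was listed at 0 in all 4. Of markers of other cells, 3 of 7 fibroblast, 1 of 6 macrophage, 0 of 4 endothelial and 1 of 6 neuron markers reached 1 RPKM. The fibroblast markers summed to between 3432 and 3934 RPKM, nearly all of it Col1a1, while Dcn and Lum were at or near 0. The macrophage, endothelial and neuron markers each summed to at most 1.88 RPKM in any library.

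In a dividing cell, D-type cyclins with Cdk4 or Cdk6, and then E-type cyclins with Cdk2, release the E2F transcription factors from the retinoblastoma family. E2F factors switch on genes whose products license origins and copy DNA. Later in the cycle B-Myb, FoxM1 and the MuvB complex act on the genes of mitosis, and the same complex with other partners holds such genes down in resting cells, in part through a short promoter element called the CHR. Schwann cells of a mature nerve have left the cycle, whereas an immortalized line keeps dividing in culture.

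To show which letters these groups carry, promoters were read from a RefSeq table of the GRCr8 build, which gives 250 bases before and 50 bases after each gene start. Of the 46 genes 33 matched 1 promoter, which were 5 G1, 14 replication and 14 mitosis genes. The 13 others are Ccnd1, Ccnd2, Ccne2, Cdk6, E2f1, E2f2, Cdc6, Orc1, Mcm4, Rrm2, Ccna2, Aurkb and Foxm1. The E2F letters searched on both strands were TTTGGCGC, TTTCCCGC, TTTGGCGG, TTTCGCGC and TTTGCCGC. They were present in 11 of 14 replication promoters (78.6%), in 1 of 14 mitosis promoters (7.14%, Cdk1) and in 1 of 5 G1 promoters (20%, E2f3). These letters were held by 2.59% of all 33469 promoters in the table, and by 5.42% of the 7306 promoters of genes with at least 1 RPKM. The CHR letters were TTTGAA and TTCGAA. These were found in 10 of 14 mitosis promoters (71.4%), against 3 of 14 replication promoters (21.4%), 19.7% of all promoters and 13.3% of those of genes with at least 1 RPKM. CCAAT was held by 11 of 14 in both groups (78.6%), against 37.5% of all promoters. The letters are a description of these windows and not evidence of binding.

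Of the replication promoters with E2F letters, 3 are printed because these subunits of one helicase stood higher in the libraries numbered 2. Each is the 140 bases before the gene start, 5′ to 3′ on the strand of the gene, and all 3 lie on the minus strand of GRCr8. Capitals mark the E2F letters, and where a forward and a reverse match overlap the capitals cover both. The windows are chr4:122918095-122918234 for Mcm2, chr13:42404353-42404492 for Mcm6 and chr12:22163179-22163318 for Mcm7.
Mcm2: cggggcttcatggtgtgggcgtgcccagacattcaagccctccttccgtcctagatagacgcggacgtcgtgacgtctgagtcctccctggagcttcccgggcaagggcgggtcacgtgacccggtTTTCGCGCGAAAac
Mcm6: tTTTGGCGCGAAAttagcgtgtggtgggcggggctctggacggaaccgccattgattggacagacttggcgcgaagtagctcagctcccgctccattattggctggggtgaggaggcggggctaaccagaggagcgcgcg
Mcm7: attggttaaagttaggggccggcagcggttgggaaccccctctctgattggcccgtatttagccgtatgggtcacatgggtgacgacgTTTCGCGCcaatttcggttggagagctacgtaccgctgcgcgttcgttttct

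For the mitosis group, 4 promoters with CHR letters follow, 2 of genes that stood far lower in the libraries numbered 2 (Top2a and Mki67) and 2 of genes that differed less (Cdc20 and Cdk1). Capitals mark the CHR letters, which in Top2a read on the opposite strand. The windows are chr10:84473094-84473233 for Top2a, chr1:199952594-199952733 for Mki67 and chr5:137255800-137255939 for Cdc20, all on the minus strand, and chr20:19265153-19265292 on the plus strand for Cdk1.
Top2a: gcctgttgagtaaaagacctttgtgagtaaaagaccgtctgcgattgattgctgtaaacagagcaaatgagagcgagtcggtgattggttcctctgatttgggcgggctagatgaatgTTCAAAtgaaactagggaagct
Mki67: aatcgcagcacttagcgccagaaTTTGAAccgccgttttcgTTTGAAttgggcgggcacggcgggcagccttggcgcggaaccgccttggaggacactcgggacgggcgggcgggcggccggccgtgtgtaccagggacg
Cdc20: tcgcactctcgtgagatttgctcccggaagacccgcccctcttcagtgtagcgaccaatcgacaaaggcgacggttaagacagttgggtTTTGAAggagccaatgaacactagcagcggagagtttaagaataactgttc
Cdk1: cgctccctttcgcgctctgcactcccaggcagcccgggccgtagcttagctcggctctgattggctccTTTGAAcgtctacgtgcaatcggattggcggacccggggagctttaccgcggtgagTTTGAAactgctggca

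Before the values by passage, the likeness of the libraries has to be stated, because the replicate labels and the data do not point the same way. Over the 46 genes the median absolute difference on the log2(RPKM + 1) scale was 0.26 between the 2 libraries of passage 9 and 0.21 between those of passage 39. Between passages it was 0.029 for the libraries numbered 1 and 0.028 for those numbered 2. The interval of the read ratio lay wholly above or below 1 for 41 of 46 genes within passage 9, where 72% of all genes with at least 1 RPKM did so, and for 41 of 46 within passage 39, against 70.6%. Across passages this held for 3 of 46 genes in the libraries numbered 1, against 6.26% of all genes, and for 6 of 46 in those numbered 2, against 8.86%. The study's methods report that technical replicates of the unmodified lines were pooled and spread over 2 lanes. They do not say what the library numbers mark. Whether libraries of 1 number share a preparation, or whether labels were crossed between passage and replicate, cannot be told apart from these files. Differences are therefore given below both by passage and by library number. By the labels as given, a difference by number is one between libraries of the same passage, and if labels were crossed it would be one between the populations.

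**Figure D1:**
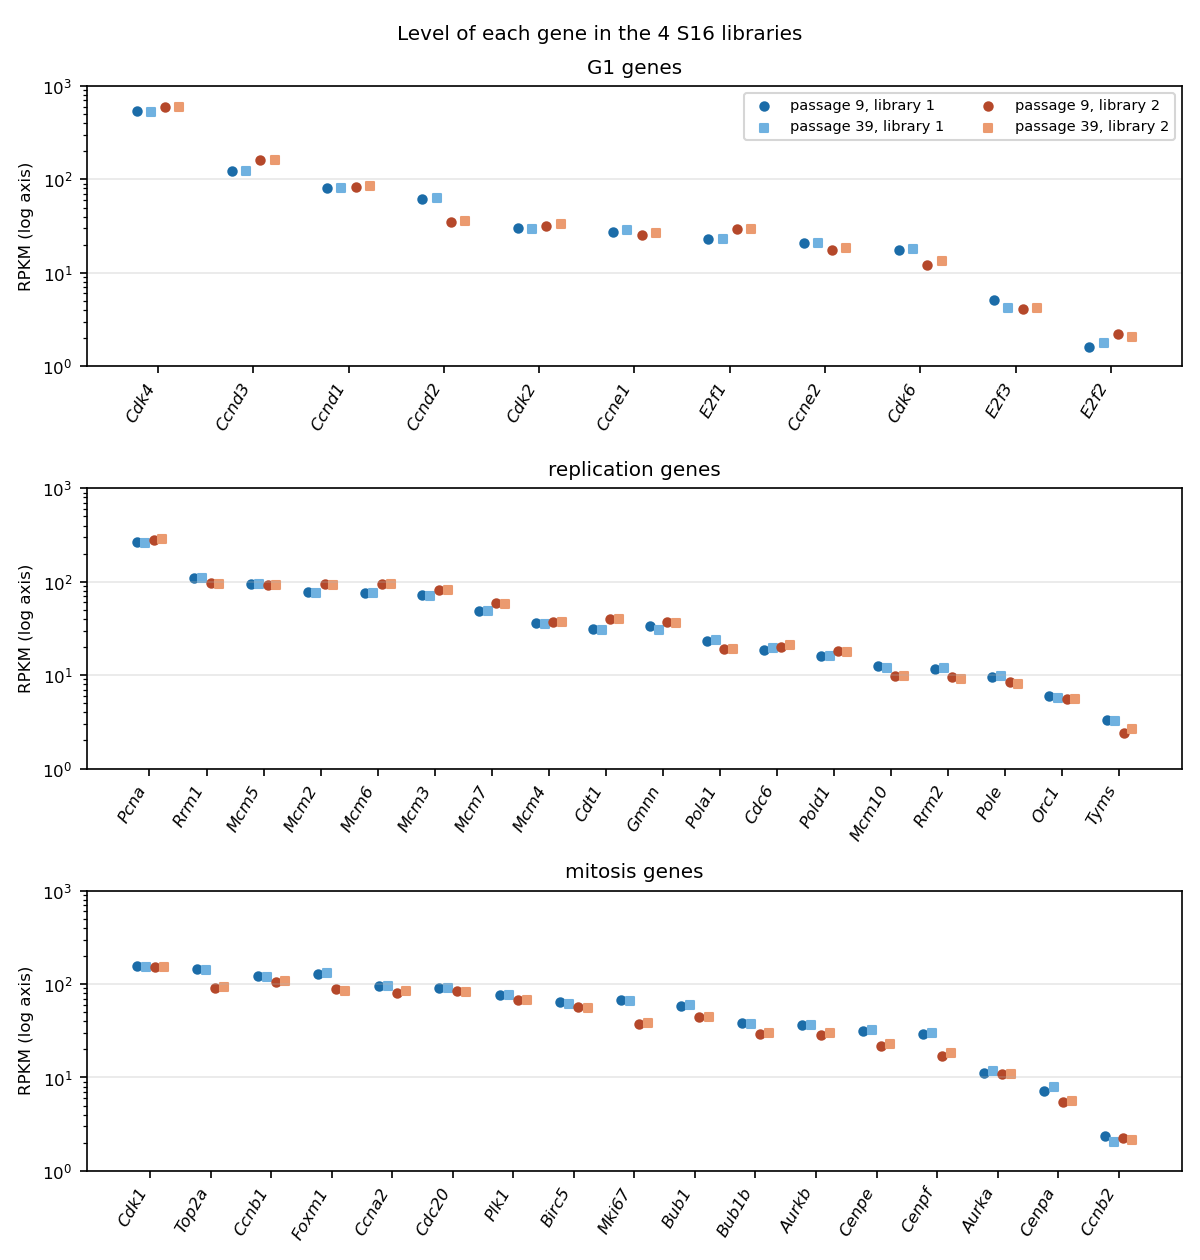
RPKM on a log axis of each of the 46 genes in each of the 4 libraries, in panels for the 11 G1, 18 replication and 17 mitosis genes and ordered by mean level. Circles are passage 9 and squares passage 39, with libraries numbered 1 in blue and those numbered 2 in red. The points of 1 color lie close together for nearly every gene, and the colors part most for Ccnd2, Mki67, Cenpf and Top2a.

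The 46 genes spanned levels from 1.92 RPKM (E2f2) to 563 RPKM (Cdk4), with a median of 34.8 RPKM against 11.1 RPKM over all genes with at least 1 RPKM. By role the median of the mean levels was 27.0 RPKM in G1 genes, 34.8 RPKM in replication genes and 52.2 RPKM in mitosis genes. Within any single library the highest of the 46 lay between 268 and 331 times above the lowest. Levels of different genes are comparable only as far as the lengths behind the RPKM values are right. Those lengths were recovered as the smallest that give whole reads, so a true length can be a multiple. The paper and the labels used here do not state them.

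In the G1 group Cdk4, the kinase partner of D-type cyclins, was the highest, at 537 RPKM in library 1 and 594 RPKM in library 2 of passage 9, and at 527 and 592 RPKM in the same libraries at passage 39. Its mean was 563 ± 4.09 RPKM (SD over 2 populations). Cdk6, which shares the role of Cdk4, had 17.6 and 12.1 RPKM at passage 9 and 17.9 and 13.3 at passage 39. Both kinases were thus alike between passages, and they parted between library numbers in opposite directions, so that Cdk4 lay 30.4, 49.3, 29.5 and 44.7 times above Cdk6 in the 4 libraries in the same order. Cdk2, the partner of E-type cyclins, had 30.0, 31.6, 29.2 and 33.3 RPKM in that order, a narrow range in which the libraries numbered 2 were slightly higher.

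The 3 D-type cyclins, the regulatory subunits of Cdk4 and Cdk6, behaved differently from each other. Ccnd1 was level, with 80.2 and 82.9 RPKM at passage 9 and 81.8 and 84.0 at passage 39. Ccnd3 had 122 and 163 RPKM at passage 9 and 123 and 162 at passage 39. Both libraries numbered 2 were above both numbered 1 by 1.33-fold, with an interval of the ratio from 1.30 to 1.37 in passage 9 and from 1.28 to 1.36 in passage 39. Ccnd2 went the other way, with 61.5 and 35.2 RPKM at passage 9 and 63.7 and 35.7 at passage 39. It was 1.77-fold higher in the libraries numbered 1, and the libraries of the 2 numbers did not overlap. As a result Ccnd3 exceeded Ccnd2 by 1.99 and 1.92 times in the libraries numbered 1 of passages 9 and 39, and by 4.62 and 4.53 times in those numbered 2.

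The E-type cyclins, which bind Cdk2 at the entry into S phase, were both slightly higher in the libraries numbered 1. Ccne1 had 27.4 and 25.3 RPKM at passage 9 and 28.8 and 26.5 at passage 39, and Ccne2 had 20.7 and 17.7 RPKM at passage 9 and 20.7 and 18.5 at passage 39. Neither pair of numbered libraries overlapped. Of the activator E2F factors E2f1 was the highest by far, with 22.8 and 29.6 RPKM at passage 9 and 22.8 and 29.4 at passage 39, so that the libraries numbered 2 were 1.29-fold higher. E2f2 had only 1.62, 2.22, 1.77 and 2.07 RPKM, from between 274 and 385 reads a library, and was the lowest of all 46 genes. E2f3 had 5.16 and 4.06 RPKM at passage 9 and 4.22 and 4.17 at passage 39, and library 1 of passage 9 stood apart from the other 3.

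Among the 18 replication genes Pcna, the sliding clamp that tethers DNA polymerases, was the highest, with 264 and 282 RPKM at passage 9 and 262 and 288 at passage 39. Rrm1 and Mcm5 came next by mean level, at 104 and 93.5 RPKM against 274 RPKM for Pcna. The lowest were Tyms, thymidylate synthase, at 2.90 RPKM, Orc1, a subunit of the origin recognition complex, at 5.70 RPKM, and Pole, the catalytic subunit of the leading-strand polymerase, at 9.01 RPKM. The gene model behind Tyms was recovered as 6117 bp, and its RPKM and rank depend on that length.

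Licensing of origins was represented by 11 genes, whose median difference between library numbers was 0.18 on the log2(RPKM + 1) scale, where the median of all genes was 0.10. It was 0.038 after rescaling the libraries to a common sum. Under median-ratio scaling (each library divided by its median ratio to the geometric mean of the libraries) it was 0.093. Relative to genes of similar length it was 0.046, and 5 of the 11 lay below the median of such genes, against 50% of all genes. Cdt1, which loads the replicative helicase, had 31.0 and 40.3 RPKM at passage 9 and 30.5 and 39.5 at passage 39. The libraries numbered 2 were 1.30-fold higher, with an interval from 1.24 to 1.37 in passage 9 and from 1.23 to 1.36 in passage 39. Gmnn, the inhibitor of Cdt1, had 33.5, 37.0, 30.5 and 35.8 RPKM. The RPKM values of inhibitor and target were therefore nearly equal, with 0.925, 1.09, 0.999 and 1.10 RPKM of Cdt1 per RPKM of Gmnn. These ratios rest on recovered lengths of 2239 bp for Cdt1 and 611 bp for Gmnn, and protein was not measured. Cdc6, which joins Cdt1 in loading, had 18.8, 20.1, 19.5 and 21.2 RPKM. Orc1 had 5.95, 5.50, 5.75 and 5.61 RPKM, the libraries numbered 2 being slightly lower.

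The helicase itself is a ring of the 6 subunits Mcm2 to Mcm7, which are held in equal numbers in the assembled complex. Their RPKM values did not match each other, and the highest exceeded the lowest by between 2.58 and 2.74 times within each library. Mcm5 was the highest, with 94.7 and 92.0 RPKM at passage 9 and 95.7 and 91.7 at passage 39, whereas Mcm4 was the lowest, with 35.9, 36.8, 34.9 and 36.6 RPKM. For both of these the library numbers differed by 1.04-fold, Mcm4 being higher and Mcm5 lower in the libraries numbered 2. The other 4 subunits were all higher in both libraries numbered 2. Mcm6 had 75.4 and 93.4 RPKM at passage 9 and 75.6 and 94.5 at passage 39. Mcm2 had 77.0 and 95.5 RPKM at passage 9 and 76.3 and 92.6 at passage 39. Mcm7 had 48.5 and 59.3 RPKM at passage 9 and 48.8 and 58.2 at passage 39, a step of 1.21-fold, slightly smaller than those of Mcm6 (1.245-fold) and Mcm2 (1.23-fold). Mcm3 had 72.8, 81.6, 70.5 and 81.5 RPKM, or 1.14-fold. The 5 subunits with a promoter in the table, all but Mcm4, each held E2F letters. Of these 5, Mcm5 alone was lower in both libraries numbered 2. Mcm10, which works with the helicase but is not part of the ring, was lower in the libraries numbered 2, with 12.4, 9.70, 11.9 and 9.91 RPKM.

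The 7 genes of DNA synthesis had a median difference between library numbers of -0.20, or -0.36 under a common sum and -0.28 under median-ratio scaling. Relative to genes of similar length it was -0.22, and 6 of the 7 lay below such genes, against 50% of all genes. The split into licensing and synthesis genes was not one of the lists by role. Of the 7, 5 had both libraries numbered 2 below both numbered 1, against 30.5% of all genes. Rrm1, the large subunit of the enzyme that makes deoxyribonucleotides, had 111 and 97.7 RPKM at passage 9 and 110.5 and 95.7 at passage 39. Its partner Rrm2, the subunit that cells make in S phase, had 11.6, 9.53, 11.9 and 9.04 RPKM. Rrm1 was thus between 9.30 and 10.6 times above Rrm2. Pola1, the catalytic subunit of the primase-polymerase, had 23.3, 19.2, 23.9 and 19.0 RPKM. Tyms had 3.34, 2.42, 3.20 and 2.64 RPKM, and Pole had 9.60, 8.52, 9.81 and 8.12 RPKM. Pold1, the catalytic subunit of the lagging-strand polymerase, went with Pcna in the other direction, at 15.9, 18.01, 16.2 and 17.7 RPKM.

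The mitosis genes were led by Cdk1, the kinase that drives entry into mitosis, which had 156 and 151 RPKM at passage 9 and 152 and 153 at passage 39. These 4 values overlapped between library numbers and between passages. Its cyclin partners were at very unequal levels. Ccnb1 had 121 and 104.5 RPKM at passage 9 and 120.3 and 107 at passage 39.
Ccnb2 had 2.38, 2.26, 2.05 and 2.12 RPKM, so that Ccnb1 was between 46.3 and 58.5 times above it. Ccna2, which acts in S phase with Cdk2 and later with Cdk1, had 96.5 and 80.1 RPKM at passage 9 and 96.2 and 83.9 at passage 39. Ccnb2 is also the gene with the fewest reads, at 123, 99, 88 and 109 a library. The GRCr8 annotation names 2 pseudogenes for Ccnb2 and 1 for Cdk1. It also names 4 for Cdk4, the highest of the 46 genes, and 3 each for Pcna and Aurka. Reads that match several copies were dropped by the authors. The part of this in the low value of Ccnb2 was not tested.

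The largest steps between library numbers were those of 4 mitosis genes and Ccnd2. Mki67, which coats mitotic chromosomes and is the usual stain for dividing cells, had 67.8 and 37.7 RPKM at passage 9 and 65.4 and 37.9 at passage 39. Its ratio of library 2 to library 1 was between 0.544 and 0.567 by the interval of passage 9 and between 0.567 and 0.591 by that of passage 39. Top2a, the topoisomerase that untangles sister DNA, had 145 and 90.6 RPKM at passage 9 and 142 and 92.0 at passage 39. In each of these genes both libraries numbered 1 were far above both numbered 2, while the passages were nearly equal.

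Cenpf, a large protein of the kinetochore, had 29.4 and 17.0 RPKM at passage 9 and 29.7 and 18.1 at passage 39, a step of 1.68-fold. Foxm1, the transcription factor of many mitosis genes, had 129.5 and 88.0 RPKM at passage 9 and 133 and 85.3 at passage 39, a step of 1.51-fold. The gene model behind Foxm1 was recovered as 1216 bp, and its RPKM depends on that length while its ratios between libraries do not. Cenpe, the kinetochore motor, had 31.7, 21.8, 32.5 and 23.1 RPKM.

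Of the checkpoint kinases that watch kinetochore attachment, Bub1 had 58.7 and 44.2 RPKM at passage 9 and 59.4 and 44.4 at passage 39, and Bub1b had 38.5, 29.4, 37.8 and 30.2 RPKM. Cenpa, the histone variant that marks the centromere, had 7.19, 5.48, 7.90 and 5.65 RPKM. These 3 were lower in both libraries numbered 2 by between 1.28-fold and 1.36-fold. Aurkb, the kinase of the chromosomal passenger complex, had 36.9, 28.7, 36.1 and 29.7 RPKM, a step of 1.251-fold. Its partner Birc5 differed less, with 64.3, 57.5, 61.1 and 55.7 RPKM.

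The remaining mitosis genes had steps of at most 1.13-fold. Plk1, a kinase of centrosomes and kinetochores, had 76.0, 68.3, 77.3 and 67.3 RPKM. Cdc20, the activator of the anaphase-promoting complex, had 91.8, 83.5, 91.6 and 82.5 RPKM. Aurka, the spindle pole kinase, had 11.3 and 10.9 RPKM at passage 9 and 11.8 and 10.9 at passage 39. For Plk1 and Cdc20 both libraries numbered 2 were below both numbered 1, and for Aurka the same order held by a margin within counting error in each passage.

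Set side by side, the groups differed in how they stood between library numbers. The median over all 11025 genes with at least 1 RPKM was 0.10 on the log2(RPKM + 1) scale of the deposited values. Rescaling each library to a sum of 1000000 moved that median by -0.13 and a median-ratio scaling moved it by -0.077. The median of the 46 genes was -0.14. It was 0.042 in G1 genes, 0.078 in replication genes and -0.31 in mitosis genes. The first and second of these turned negative under both scalings, to -0.10 and -0.046 in G1 genes and to -0.065 and -0.0081 in replication genes. The mitosis median stayed negative, at -0.47 and -0.40. Of single genes, Ccnd1, Cdk2, Cdc6, Mcm4 and Pcna were slightly higher in the libraries numbered 2 as deposited and turned lower under at least 1 of the scalings, and the other 41 kept their sign under both. No group was compared with all genes by a test, and these medians are descriptions.

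By count, 10 of the 46 genes were lower in the libraries numbered 2 by at least 0.32 on the log2 scale, where 10.1% of all genes were. These comprised 8 mitosis genes (Mki67, Cenpf, Top2a, Foxm1, Cenpe, Bub1, Cenpa and Bub1b) with Ccnd2 and Cdk6. Conversely 3 were higher by at least 0.32 (Ccnd3, E2f1 and Cdt1), against 19.3% of all genes. Under both other scalings 0 of 46 were, and the share of all genes at those scalings is not given here. No gene of the 46 reached 2-fold, against 1.10% of all genes. Both libraries numbered 2 lay below both numbered 1 in 28 of 46 genes, against 30.5% of all genes, and above both in 16 of 46, against 57.2%. Of the 28, 15 were mitosis genes, 8 replication genes and 5 G1 genes. Below the median of all genes stood 32 of 46, where 50% of all genes stand by construction.

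All 17 mitosis genes had a difference below 0 as deposited, against 35.9% of all genes. All 17 were also below 0 under both other scalings, to which that share does not apply. The median of all genes was then -0.026 under the common sum and 0.027 under median-ratio scaling. Ccnb2 and Cdk1 came nearest to 0, at -0.011 and -0.023, and in those 2 genes alone of the 46 did the numbered libraries overlap. Of 18 replication genes 8 were below 0, and of 11 G1 genes 5 were. In the 2 passages taken apart the mitosis median was -0.34 at passage 9 and -0.28 at passage 39, and the replication median was 0.063 and 0.091. The median of the mitosis genes was 0.868 and 0.836 of the median of Mcm2 to Mcm7 in the libraries numbered 1, and 0.509 and 0.513 in those numbered 2. In bulk libraries fewer cells in a phase of the cycle and less RNA in each such cell cannot be told apart.

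**Figure D2:**
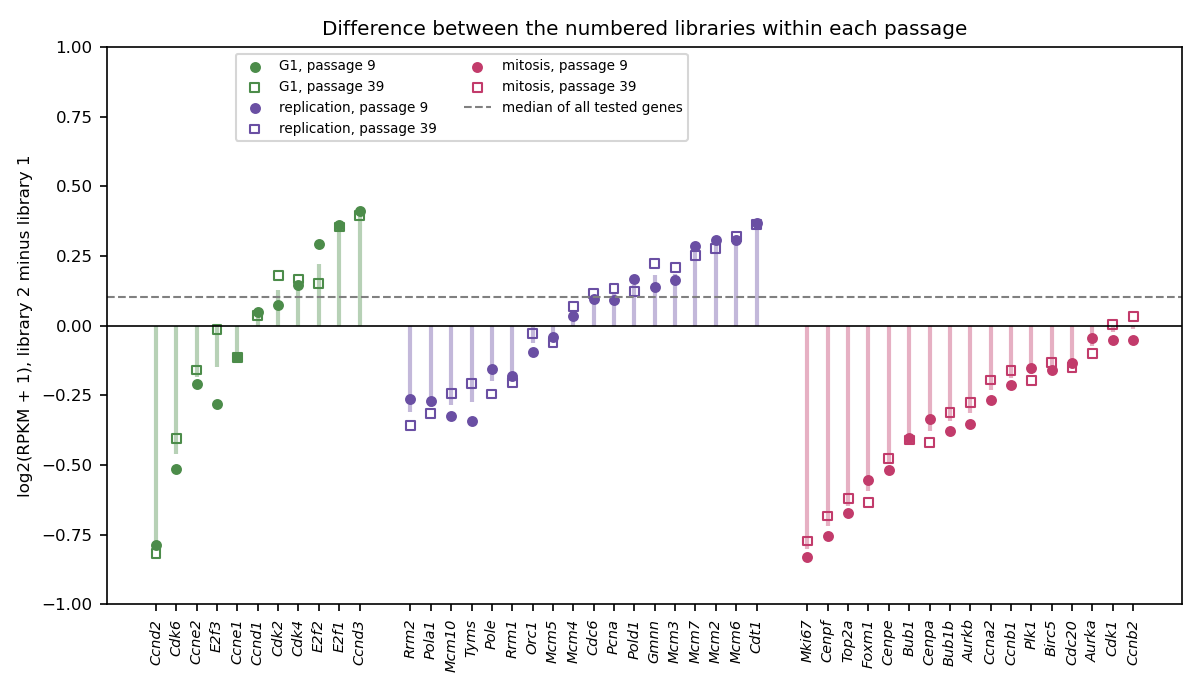
Difference between library 2 and library 1 on the log2(RPKM + 1) scale for each of the 46 genes, sorted within the G1, replication and mitosis groups. Filled circles are passage 9, open squares passage 39, bars their mean, and the dashed line is the median of 11025 genes at 0.10. All 17 mitosis bars lie below 0, from -0.80 for Mki67 to -0.011 for Ccnb2, while replication genes lie on both sides.

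Other genes of the same pathways were read from lists of textbook members. These lists, like the choice of the 46, were written with earlier results of these data known. Of 73 other mitosis genes 66 had at least 1 RPKM, with a median difference of -0.25, and 56 of the 66 were below 0, against 35.9% of all genes. Of the 66, 22 were lower by at least 0.32, against 10.1% of all genes, and 0 were higher by that much, against 19.3%. Relative to genes of similar length 61 of 66 lay below, against 50% of all genes. The lowest differences were those of Sgol2, a protector of centromere cohesion, at -0.74, and of Ncapg and Ncaph, subunits of condensin, at -0.73 and -0.62. Ncaph had 66.8 and 42.9 RPKM at passage 9 and 67.4 and 43.9 at passage 39. Not all mitosis genes followed, since Pttg1, the securin that holds back separase, was 0.321 higher, Cenpb 0.30 higher and Spc24 0.28 higher. The threshold printed as 0.32 is 0.322 in full, so Pttg1 fell just short of it. Pttg1 had 36.0 and 44.9 RPKM at passage 9 and 35.4 and 44.8 at passage 39, so that its libraries did not overlap either.

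The 45 other replication genes, all with at least 1 RPKM, had a median difference of 0.0015, with 3 lower by at least 0.32 (10.1% of all genes) and 0 higher (19.3%). The median was -0.14 under the common sum, -0.076 under median-ratio scaling and -0.12 relative to genes of similar length. Below genes of similar length lay 37 of 45, against 50% of all genes. The 3 lower genes were Ticrr (-0.55) and Dbf4 (-0.39), which act in the firing of origins, and Dut (-0.34), which clears dUTP. The highest were Pole4 (0.30), Rfc4 (0.26) and Pold2 (0.22), subunits of the polymerases and of the clamp loader. Of 23 other genes of G1 and S control 21 had at least 1 RPKM, with a median of 0.023, of which 2 were lower by at least 0.32 and 4 higher, against the same 10.1% and 19.3%. Their median was -0.11 under the common sum and -0.055 under median-ratio scaling. Myc was the highest of these at 0.57, with 10.6 and 15.8 RPKM at passage 9 and 10.5 and 16.5 at passage 39, followed by Lin37 (0.44) and Ccnh (0.41). E2f7, a repressor of the E2F family, was the lowest at -0.42, then Rbl1 (-0.34) and Lin54 (-0.27).

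The inhibitors of cyclin-dependent kinases were present beside these genes. Of 7 symbols 5 had at least 1 RPKM, with a median difference of 0.038. It turned negative under the common sum (-0.11), under median-ratio scaling (-0.049) and relative to genes of similar length (-0.23). Cdkn1b, which encodes p27, was the highest, with 50.3, 47.3, 51.5 and 47.7 RPKM. Cdkn2a, whose products restrain Cdk4 and stabilize p53, had 32.5, 34.8, 31.7 and 31.3 RPKM, and Cdkn1a, which encodes p21, had 15.8, 16.4, 16.1 and 17.1 RPKM. In these 3 the libraries differed little. Cdkn2c, an inhibitor of Cdk4 and Cdk6, was lower in the libraries numbered 2, with 13.0, 9.79, 13.5 and 9.65 RPKM. Cdkn2b had the largest rise of the list, at 0.17, with 2.57, 2.82, 2.28 and 2.89 RPKM.

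The differences between library numbers went with gene length across all genes. Over 11024 genes with a recovered length, Spearman's rho between length and difference was -0.42, as a description across genes that share 4 libraries. Over the 46 genes it was -0.32, over the 11 G1 genes 0.0091, over the 18 replication genes -0.51 and over the 17 mitosis genes -0.70. The 2 longest models, Mki67 at 10246 bp and Cenpf at 10070 bp, belonged to genes with very large steps, and genes of that length had a median of -0.22. Foxm1 at 1216 bp and Ccnd2 at 1414 bp had steps as large as long genes, at lengths where the median was 0.24 and 0.22. These are recovered lengths, of which a true length can be a multiple. A longer true length would place a gene in another bin and change its value relative to length.

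Set against genes of similar length, the median of the 17 mitosis genes was -0.42, and 17 of 17 lay below the median of their length, where 50% of all genes do. The replication median was then -0.055, with 11 of 18 below, and the G1 median -0.12, with 7 of 11 below. Relative to genes of its length Mki67 stood at -0.58, Cenpf at -0.50, Top2a at -0.66, Foxm1 at -0.83 and Ccnd2 at -1.02. Of the 5 subunits with E2F letters, Mcm6 stood at 0.20 relative to its length, Mcm2 at 0.18, Mcm7 at 0.15, Mcm3 at 0.070 and Mcm5 at -0.19. The sum of the 10 Schwann cell markers was 2024 RPKM in the libraries numbered 1 and 1953 RPKM in those numbered 2. Single markers went both ways, S100b with 85.7, 31.8, 86.6 and 32.8 RPKM and Egr2 with 5.90, 10.5, 6.21 and 11 RPKM. The sum of fibroblast markers was 3439 and 3880 RPKM, a difference carried by Col1a1, while Col3a1 went the other way with 82.8, 50.3, 81.9 and 48.5 RPKM. What part length, RNA quality or the makeup of the cultures had in the differences was not tested.

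**Figure D3:**
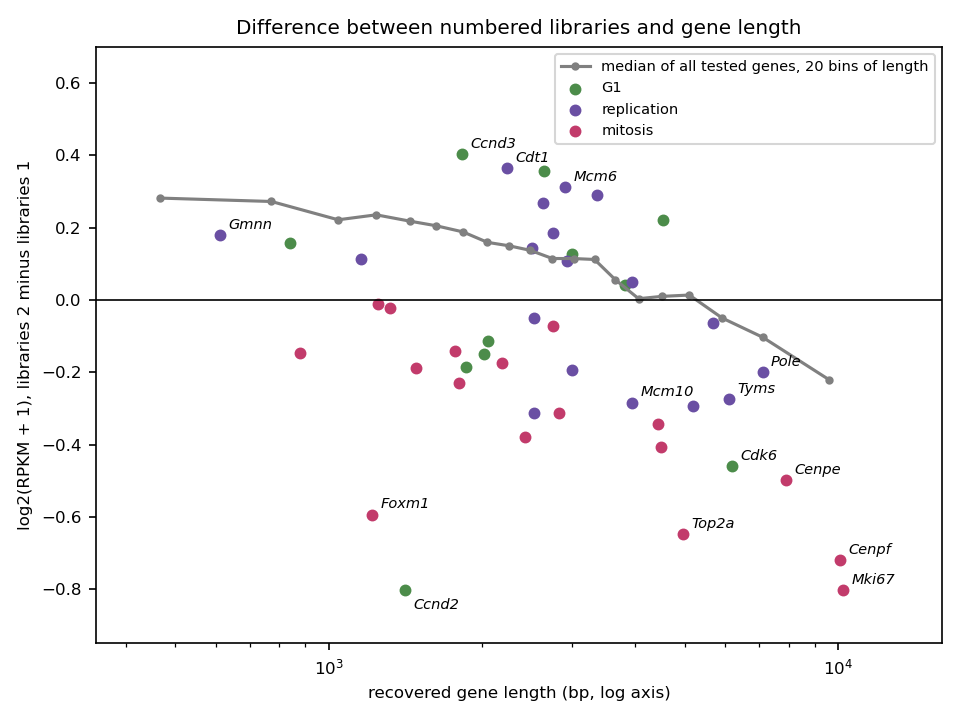
Difference between libraries numbered 2 and 1 on the log2(RPKM + 1) scale against recovered gene length in bp on a log axis, for 46 genes colored by role. The gray line joins the medians of all genes with at least 1 RPKM in 20 bins of length. All mitosis genes lie below the line, Mcm6, Cdt1 and Ccnd3 lie above it, and Foxm1 and Ccnd2 lie far below it at short recovered lengths.

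The steps were also set beside the promoter letters, as a description with no test. Ccna2, Aurkb and Foxm1 matched no promoter and are in neither mitosis set. The 10 mitosis genes with CHR letters in the window had a median difference of -0.26 and the 4 without had -0.30. Among replication genes the 11 with E2F letters had a median of 0.18 and the other 3 had 0.11. Over all genes with at least 1 RPKM and a promoter, those with E2F letters had a median of 0.075 and those without 0.12. The 4 mitosis promoters printed above were chosen because they carry CHR letters, so they add nothing to this comparison. Top2a and Mki67 at -0.65 and -0.80, and Cdc20 and Cdk1 at -0.14 and -0.023, all carry CHR letters within the 140 bases before the gene start.

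By the labels as given, the 46 genes differed little between the passages, a reading that depends on labels which the likeness of the libraries leaves in doubt.
The median of passage 39 minus passage 9 was 0.0018 on the log2 scale, within a range from -0.10 to 0.079. The medians by role were 0.018 in G1 genes, -0.011 in replication genes and 0.0045 in mitosis genes, against -0.0018 over all genes. None of the 46 was 0.32 apart, where 0.109% of all genes were. The same way in both numbered pairs, 12 of 46 were higher at passage 39 and 11 were lower, against 24.7% and 26.6% of all genes. The interval of the ratio lay off 1 in at least 1 pair for 9 of 46 genes, against 14.3% of all genes. It lay off 1 the same way in both pairs for 0 of 46, against 0.444%.

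The lowest passage differences were those of E2f3 at -0.10, Ccnb2 at -0.10, Gmnn at -0.088, Birc5 at -0.060 and Mcm2 at -0.029. For E2f3 the values of the 2 pairs were -0.24 in the libraries numbered 1 and 0.030 in those numbered 2, so its difference rested on library 1 of passage 9. Ccnb2, Gmnn, Birc5 and Mcm2 were lower at passage 39 in both pairs. The highest were Cenpa at 0.079, Cdk6 at 0.074, Ccne1 at 0.069, Cdc6 at 0.063 and Cenpe at 0.055, all higher at passage 39 in both pairs. For Cdk6 the ratio of passage 39 to passage 9 had an interval from 0.972 to 1.06 in the libraries numbered 1 and from 1.05 to 1.16 in those numbered 2. For Cenpe the intervals ran from 0.996 to 1.05 and from 1.02 to 1.09. Each of these differences was of the size of counting error in at least 1 pair, and with 1 population a passage none was tested.

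**Figure D4:**
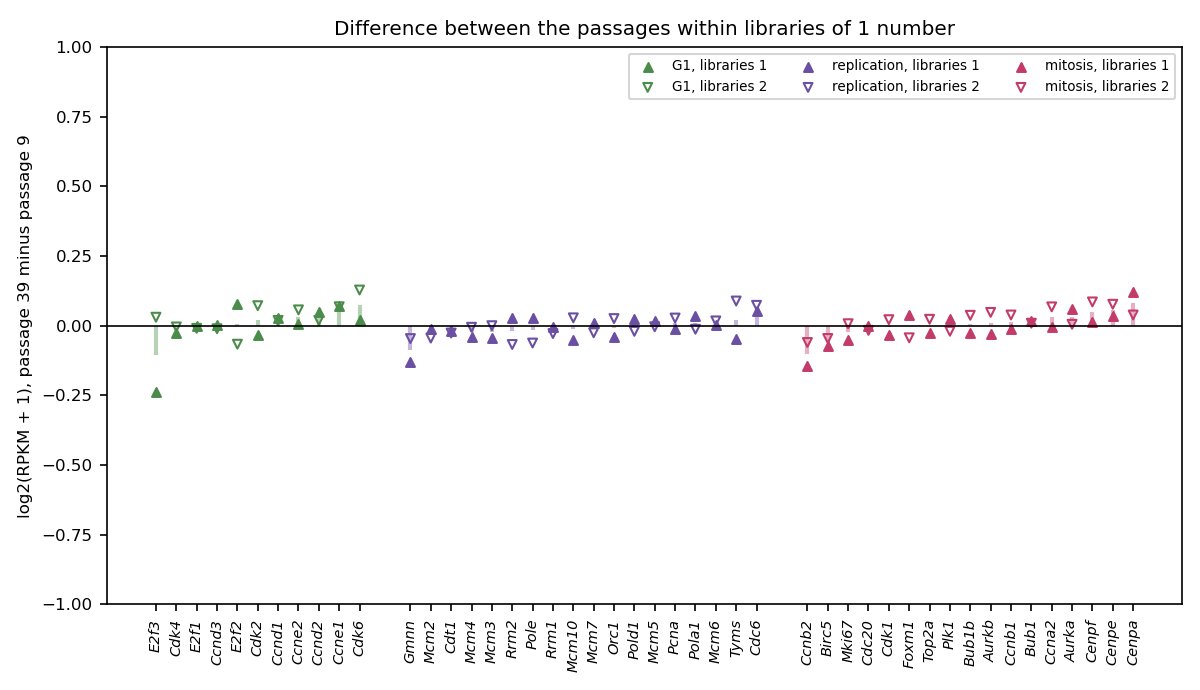
Passage 39 minus passage 9 on the log2(RPKM + 1) scale for each of the 46 genes, drawn on the same axis as the differences by library number and sorted within the 3 groups. Filled triangles are libraries numbered 1, open triangles libraries numbered 2, and bars their mean. The means lie between -0.10 and 0.079, and the point farthest from 0 is E2f3 in the libraries numbered 1 at -0.24.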

How the data were processed

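According to the study's methods, the authors sequenced poly(A) libraries as single 50-base reads, aligned them with STAR to the rat rn5 genome, kept uniquely mapped reads and counted them with HTSeq without strand. The authors deposited 1 RPKM value per gene and library, and these are the only values used. How RPKM was computed, and from which gene lengths, is not given in the sources used here. Overlapping genes cannot be told apart without strand.

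Library totals, gene lengths and whole reads were recovered from the RPKM values. Whole reads resulted for 18114 of 18114 genes above 0 in at least 2 libraries. Tested on simulated libraries, the recovery returned 4 of 4 totals and the exact reads of 96.84% of 17583 genes. Differences were taken on the log2(RPKM + 1) scale, which understates changes of low genes, over the genes whose mean reached 1 RPKM. Counts used a threshold of 0.3219 on that scale, the log2 of 1.25, which is printed as 0.32. By number, the value is the mean over both passages, and by passage the mean over both numbers. Ratio intervals compared the reads of 2 libraries, scaled by their totals. Genes of similar length were those in the same of 20 bins. No test was run, because each passage is 1 population. Alternatives were 2 scalings, a pseudocount of 0.1 RPKM, other minimums (0.1 and 5 RPKM, or none), a comparison with genes of similar length and each library left out. Analyses ran in Python 3.11.15 with scipy 1.17.1, pandas 2.3.3 and numpy 2.4.6.

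The members and lists were chosen with earlier results of these data known. Genes named with the value of each library are the 3 highest and 3 lowest of each group, the Mcm subunits, the cyclins and their kinases, Cdt1 with Gmnn, and the 5 largest differences each way per comparison. Of each other list the 3 largest differences each way are named. Further members are given so that all 46 are accounted for. A gene of the marker lists is not reported here.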

Additional observations from a re-analysis of the deposited data

Results flagged for a closer look

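Among the 4 libraries 1 gene of the 46 had a library that stood apart from the other 3. E2f3 had 5.16 RPKM in library 1 of passage 9, from 431 reads, and between 4.06 and 4.22 RPKM in the others. The gap to the nearest other library was 0.855 of the whole range, above Dixon's 95% critical value for 4 samples. Chance alone marks about 1 in 20 groups, which over 46 genes comes to 2.3. The interval of the E2f3 level in that library, from 4.68 to 5.67 RPKM, reached below the upper end of that of library 1 of passage 39, at 4.73 RPKM. The ratio of passage 39 to passage 9 in the libraries numbered 1 had an interval from 0.703 to 0.952, which leaves out 1.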

How the results depend on the processing

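No paired analysis was possible because no result comes from a test; differences within numbered pairs and within passages are given as values only. Under a common sum of 1000000 and under median-ratio scaling the median difference by number became -0.29 and -0.23 over 46 genes, -0.10 and -0.0461 in G1, -0.0647 and -0.00812 in replication and -0.47 and -0.40 in mitosis genes. Relative to similar length these were -0.27, -0.12, -0.0549 and -0.42. Genes lower by at least 0.32 numbered 21 under the common sum, 15 under median-ratio scaling and 18 relative to length, and those higher 0 in each. Genes with both libraries numbered 2 above both numbered 1 were 8 under the common sum and 9 relative to length. The shares of all genes at these settings, or with a library left out, are not given here. These counts therefore stand without a background. The median of all genes by number was -0.026 under the common sum and 0.027 under median-ratio scaling. A minimum of 5 RPKM made the replication median 0.11. The sign by number was kept in 41 of 46 genes under the common sum, 44 under median-ratio scaling, 46 with the smaller pseudocount and 41 relative to length, and 0 of the genes past 0.32 changed sign. The median level of replication over mitosis genes was 0.666, and 0.653 under the common sum. With each library left out in turn it ranged from 0.555 to 0.751, the passage median from -0.0754 to 0.0734 with 2 to 5 genes at least 0.32 apart, and the median by number from -0.15 to -0.12 over 46 genes and from 0.0280 to 0.0570 in G1 genes. In each case the passage then left with 1 library sets that library against a mean of both numbers. Depth limits Ccnb2 and E2f2 most.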
